A study of Mus musculus with 7 samples.

Results

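Small nucleolar RNAs (snoRNAs) and small Cajal body RNAs (scaRNAs) were examined in the CD8+ T-cell RNA-seq of a study on vesicles in chronic lymphocytic leukemia. They were taken as all rows whose symbol starts with Snord (C/D box snoRNAs), Snora (H/ACA box snoRNAs) or Scarna (scaRNAs) and that held at least 5 counts in total over the 7 libraries. This gave 56 genes of the 55367 in the count table, namely 36 Snord, 14 Snora and 6 Scarna genes. A further 84 rows with such symbols were at 0 in every library and 7 held between 1 and 4 counts.

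The cells were CD8+ T cells that had been sorted by FACS from the spleens of Foxp3 YFP/cre mice, the strain given for all 7 libraries. They were cultured for 48 h with small extracellular vesicles (sEVs) at 100 ug/ml. That amount is given by the sample annotation, whereas the methods describe the amount found in each kind of spleen. For CD8+ T cells in culture the methods describe stimulation in anti-CD3-coated wells with anti-CD28 and IL2, without naming these libraries. HCME-sEVs came from the spleens of healthy mice (4 libraries) and LME-sEVs from the spleens of leukemic mice of the Eμ-TCL1 model, in which the TCL1 oncogene is expressed in B cells (3 libraries). These group sizes follow the sample annotation, whereas a legend of the study assigns the sizes to the groups the other way round, and the sign of every difference below rests on the annotation. There was no library of cells without sEVs. The sources do not say whether the libraries came from separate mice or cultures, so the p-values measure the spread between these libraries, which may be technical.

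snoRNAs are nucleolar guide RNAs. A C/D box snoRNA pairs with ribosomal RNA (rRNA) and directs its 2′-O-methylation by fibrillarin, and an H/ACA box snoRNA directs pseudouridylation by dyskerin. scaRNAs do the same for the small nuclear RNAs of the spliceosome, in Cajal bodies. A few snoRNAs, among them Snora73b (U17), Snord13 (U13) and Snord118 (U8), serve the processing or other maturation of pre-rRNA. Most mammalian snoRNAs are cut from introns of host genes, whereas a minority have promoters of their own. T cells that leave quiescence enlarge their nucleoli and make more ribosomes.

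The RNAs are short, with annotated lengths between 64 and 238 bases for Snord, 128 and 205 for Snora, and 70 and 414 for Scarna genes. The defining boxes were looked for on the transcript strand alone: the C box as TGATGA in the first 25 bases, the D box as CTGA in the last 20 bases, and the ACA box as ACA in the last 7 bases. Of the 36 Snord genes 24 held the C box letters, beside 70.7% of the 99 annotated Snord genes, and 35 held the D box letters, beside 98.0%. All 14 Snora genes held the ACA box letters, beside 95.2% of the 42 annotated. Below are 4 H/ACA snoRNAs, 3 of them the most abundant of their class that fell and the fourth, Snora69, the one with the lowest log2 fold change, with the ACA box in capitals (GENCODE vM21 transcripts, GRCm38, 5′ to 3′).
Snora73b (chr4:132352322-132352526, minus strand): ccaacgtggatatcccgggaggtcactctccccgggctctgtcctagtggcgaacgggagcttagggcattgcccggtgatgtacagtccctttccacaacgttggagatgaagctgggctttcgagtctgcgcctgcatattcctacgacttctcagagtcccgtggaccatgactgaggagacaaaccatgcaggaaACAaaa
Snora20 (chr17:12922790-12922917, plus strand): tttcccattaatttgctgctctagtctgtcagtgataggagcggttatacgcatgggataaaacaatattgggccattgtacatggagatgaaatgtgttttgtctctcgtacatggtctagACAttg
Snora30 (chr7:127527874-127528003, plus strand): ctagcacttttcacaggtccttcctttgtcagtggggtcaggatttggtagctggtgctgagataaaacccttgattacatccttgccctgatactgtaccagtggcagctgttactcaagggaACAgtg
Snora69 (chrX:37082912-37083042, minus strand): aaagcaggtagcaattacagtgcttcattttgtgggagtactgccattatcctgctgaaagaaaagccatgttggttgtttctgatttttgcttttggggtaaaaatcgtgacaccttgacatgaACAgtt

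C/D box snoRNAs are shown with the C and D box letters in capitals. Snord104 is an abundant one without a call, and Snord89 and Snord49b are the 2 with the smallest false discovery rate of the class.
Snord104 (chr11:106500993-106501062, plus strand): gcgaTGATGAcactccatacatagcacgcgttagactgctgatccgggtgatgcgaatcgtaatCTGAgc
Snord89 (chr1:39548745-39548854, minus strand): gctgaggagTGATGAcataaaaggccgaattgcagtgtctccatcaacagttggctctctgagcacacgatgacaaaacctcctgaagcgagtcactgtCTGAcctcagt
Snord49b (chr11:62603079-62603150, plus strand): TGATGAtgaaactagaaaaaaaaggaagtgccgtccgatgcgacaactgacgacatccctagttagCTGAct

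After LME-sEVs the measured levels of the guide RNAs were lower, those of Snora and Scarna genes by more than those of Snord genes. The libraries were primed with oligo(dT), and mature snoRNAs carry no long poly(A) tail, so these are levels of the molecules that were primed. Levels are TMM-normalized CPM (counts scaled to 1000000 per library), in which library totals are rescaled by the trimmed mean of M-values. The 14 Snora genes together held 308 ± 42.0 CPM (SD, n = 4) after HCME-sEVs and 151 ± 18.7 CPM (n = 3) after LME-sEVs, which is 50.9% lower. The 6 Scarna genes summed to 26.8 ± 5.63 and 10.5 ± 2.58 CPM, which is 61.0% lower. The 36 Snord genes summed to 416 ± 55.1 and 303 ± 36 CPM, which is 27.1% lower. In the Snora and Scarna sums every LME-sEV library lay below every HCME-sEV library, whereas for Snord LME-sEV library 2 reached into the HCME-sEV range. These sums are descriptions without a test.

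**Figure D1:**
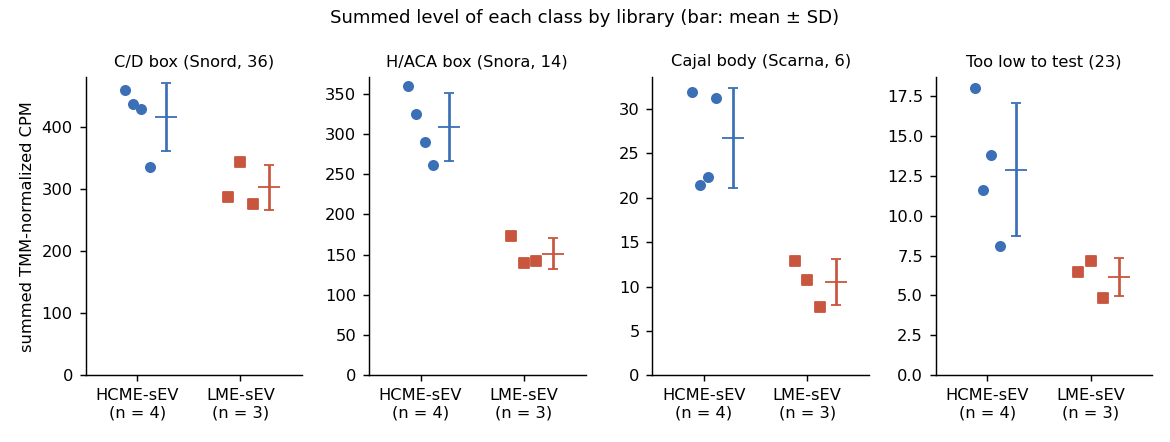
Summed TMM-normalized CPM of the C/D box (36 genes), H/ACA box (14) and Cajal body (6) RNAs, and of the 23 genes among them that were too low for a test, in each library (circles, 4 HCME-sEV libraries; squares, 3 LME-sEV libraries; bars, mean ± SD), with each axis starting at 0. The groups do not overlap for H/ACA box and Cajal body RNAs, and for C/D box RNAs 1 LME-sEV library lies above the lowest HCME-sEV library.

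Abundant members carried most of these sums. Snora73b, Snord13, Snord89 and Snord104 took 13019 of the 18322 counts of the 56 genes, or 71.1%. Without Snora73b the other 13 Snora genes summed to 123 ± 19.5 CPM after HCME-sEVs and 56.1 ± 2.51 CPM after LME-sEVs. Without Snord13, Snord89 and Snord104 the other 33 Snord genes summed to 81.4 ± 13.8 and 50.7 ± 8.07 CPM, which is 37.6% lower. The Snora sum divided by the Snord sum was 0.779, 0.739, 0.675 and 0.779 in HCME-sEV libraries 1 to 4 and 0.601, 0.404 and 0.514 in LME-sEV libraries 1 to 3, so that within each library the balance lay further towards C/D box RNAs after LME-sEVs.

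For single genes, edgeR's quasi-likelihood test was run on the counts with Benjamini-Hochberg adjustment (FDR) over the 12623 genes whose mean over the libraries reached 5 counts. A gene was called at an FDR under 0.05, and it was a differentially expressed gene (DEG) if its log2 fold change also passed 1 in either direction. Of the 56 RNAs 33 had enough counts for the test (18 Snord, 12 Snora and 3 Scarna). Calls of lower level were made for 3 of 18 Snord, 9 of 12 Snora and 3 of 3 Scarna genes, 15 in all, beside 5.21% of all tested genes. No member was called higher, beside 3.75% of all tested genes, and DESeq2's Wald test and limma-voom also called 0 higher. At an unadjusted p of the edgeR test under 0.05, 20 of the 33 members were lower and 0 higher. Of all 12623 tested genes, 1548 were lower and 1316 higher at that p. Of the 33 tested members 11 were DEG with a lower level, beside 0.658% of all tested genes.

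Calls rested on single libraries in part. Without LME-sEV library 3, 9 of the 15 calls remained and 5 members were DEG, and without HCME-sEV library 1, 12 calls remained and 7 members were DEG. The Scarna calls were 3 with all libraries and 1 without LME-sEV library 2 or 3. In each of these fits all 15 RNAs kept a log2 fold change below 0. In 19 of the 33 RNAs every LME-sEV library lay below every HCME-sEV library (7 Snord, 9 Snora, 3 Scarna), beside 10.8% of all tested genes. The median log2 fold change was −0.64 for Snord, −1.07 for Snora and −1.38 for Scarna genes, and 0.01 for all tested genes. The difference between the classes was not tested.

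**Figure D2:**
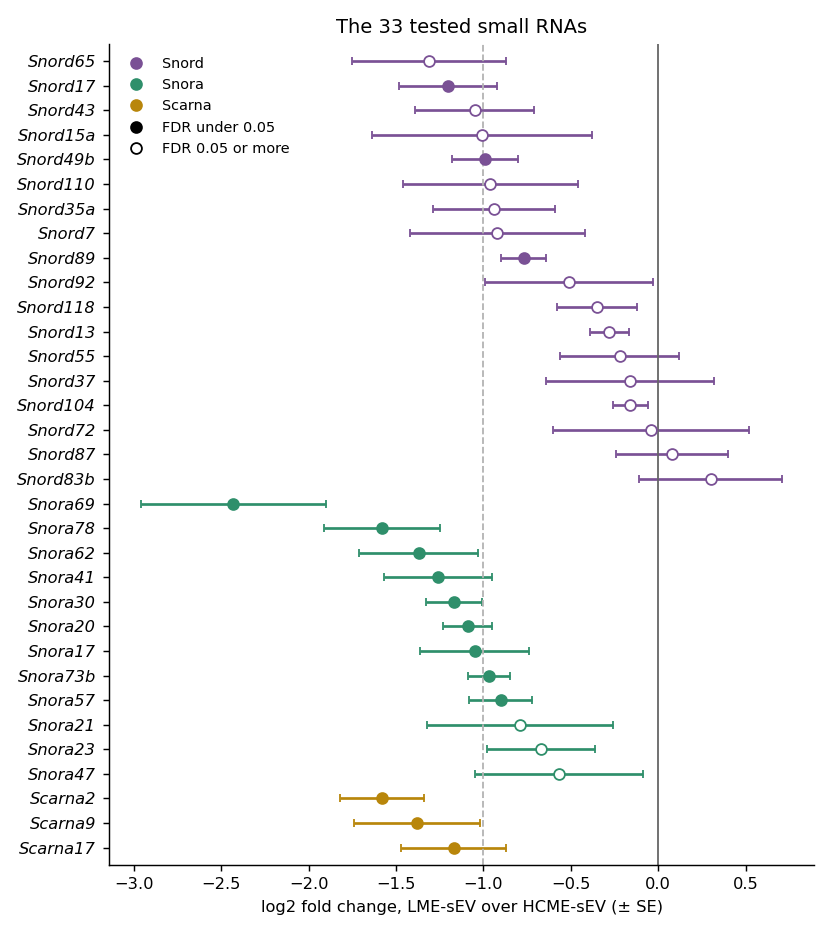
Log2 fold change (LME-sEV over HCME-sEV) ± SE of the 33 tested RNAs by class, with filled points for an FDR under 0.05 and a dashed line at −1. All 12 H/ACA box and all 3 Cajal body RNAs lie below 0, beside 6126 of all 12623 tested genes, whereas Snord83b and Snord87 lie above it.

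Snora73b, which serves the cleavage of pre-rRNA rather than its modification, had the most counts of all members over the 7 libraries and the highest mean level after HCME-sEVs, while after LME-sEVs Snord13 had the higher mean (105 against 95.3 CPM). It was measured at 211, 199, 171 and 161 CPM in HCME-sEV libraries 1 to 4 and at 118, 80 and 88.3 CPM in LME-sEV libraries 1 to 3. The ranges are well apart, and the log2 fold change was −0.97 ± 0.12 (SE) with an FDR of 7.04e-05. Its sequence is at least 90% identical to that of Snora73a over at least 80% of its length, and Snora73a was at 0 in every library, so the counts of the pair cannot be divided between them with certainty. An antisense gene, Gm17300, also has an exon there, and the strand setting of the counting is not given in the sources used here.

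The other H/ACA box RNAs of high level fell by similar amounts. Snora20 was at 50.9, 44.5, 43.3 and 33.2 CPM after HCME-sEVs and at 20.1, 20.8 and 19.7 CPM after LME-sEVs, with a log2 fold change of −1.09 ± 0.14 and an FDR of 1.18e-04. Its LME-sEV libraries lay close together. Snora30 went from 19.7, 20.7, 16.7 and 18.1 CPM to 8.58, 7.84 and 8.70 CPM, a log2 fold change of −1.17 ± 0.16 (FDR 2.39e-04). Snora57 was measured at 19.4, 17.4, 20.7 and 13.7 CPM and then at 9.12, 10.5 and 8.89 CPM, with a log2 fold change of −0.90 ± 0.18 and an FDR of 0.00344. For each of these 3 RNAs the highest LME-sEV library lay below the lowest HCME-sEV library. Snora30 and Snora57 also have near-identical annotated copies, as do Snora41 and Snora17 described next, whereas Snora20 has none.

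Less abundant H/ACA box RNAs spread more. Snora41 was at 10.6, 12.4, 6.65 and 6.03 CPM after HCME-sEVs and at 2.68, 2.91 and 5.22 CPM after LME-sEVs, a log2 fold change of −1.26 ± 0.31 with an FDR of 0.0135, and was called in 4 of the 7 fits that each left out 1 library. Snora78 was at 14.2, 8.08, 6.65 and 7.42 CPM and at 4.29, 3.36 and 1.74 CPM, a log2 fold change of −1.58 ± 0.33 (FDR 0.00485) that was called in each of the 7 fits. Snora69 had the lowest log2 fold change of the tested members, −2.43 ± 0.53 with an FDR of 0.0064, and was named after its values were seen. Its counts were 13, 11, 15 and 9 after HCME-sEVs and 3, 3 and 1 after LME-sEVs, so all 3 LME-sEV libraries lay at or under the floor of 3 counts, which is 0.58 to 0.804 CPM in these libraries. Snora69 reached the mean of 5 counts needed for the test only through its HCME-sEV libraries. The ratio of its levels, LME-sEV over HCME-sEV, was 0.177 with an exact 95% counting interval from 0.0674 to 0.393. Snora62 and Snora17 were called lower as well, at −1.37 ± 0.34 (FDR 0.0152) and −1.05 ± 0.31 (FDR 0.0378). The call of Snora17 was kept in 2 of the 7 fits and that of Snora62 in 4.

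For 3 tested H/ACA box RNAs no change was called. Snora47, whose log2 fold change was the highest of its class, was at 1.68, 1.52, 1.6 and 2.32 CPM after HCME-sEVs and at 0.804, 2.02 and 0.773 CPM after LME-sEVs. The ranges overlap through LME-sEV library 2, and the log2 fold change of −0.57 had a 95% interval from −1.52 to 0.38 (FDR 0.535). Snora23 (−0.67, FDR 0.202) and Snora21 (−0.79, FDR 0.411) were not called either, and their groups overlapped.

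All tested scaRNAs fell. Scarna2, a guide for the U2 small nuclear RNA that is transcribed from a gene of its own, was at 15.8, 10.6, 11.2 and 17.2 CPM after HCME-sEVs and at 5.36, 4.70 and 3.87 CPM after LME-sEVs. Its log2 fold change was −1.58 ± 0.24 with an FDR of 3.69e-04, and it was called in each of the 7 fits without a single library. Scarna9 was at 5.28, 4.29, 3.46 and 7.42 CPM and at 2.68, 1.79 and 1.55 CPM (−1.38 ± 0.36, FDR 0.0201). Scarna17 was at 9.36, 5.30, 6.91 and 6.26 CPM and at 3.75, 3.58 and 2.13 CPM (−1.17 ± 0.30, FDR 0.0193). Groups did not overlap in any of these RNAs, but the calls of Scarna9 and Scarna17 were each kept in only 4 of the 7 fits, and Scarna17 has a near-identical copy. The annotated Scarna9 covers 70 bases. By the letters above, Scarna9 and Scarna17 held the C and D boxes, Scarna2 the D box alone, and none of them the ACA box. The classes here follow the gene symbols, not the boxes. The other 3 scaRNAs (Scarna6, Scarna8 and Scarna13) held between 7 and 10 counts over all libraries, too few for a statement.

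**Figure D3:**
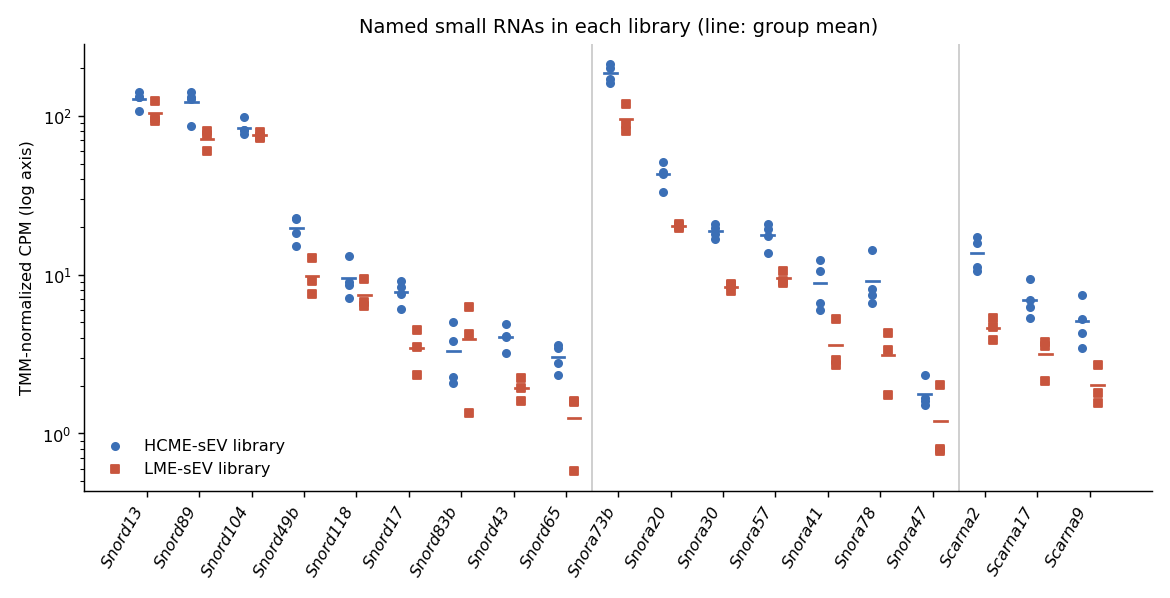
TMM-normalized CPM on a log axis of the 19 named RNAs in each library (circles, HCME-sEV; squares, LME-sEV; lines, group means), with C/D box, H/ACA box and Cajal body RNAs from left to right. The groups are apart for Snora73b, Snora20, Snora30 and Scarna2 and overlap for Snord13, Snord104 and Snord118.

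C/D box RNAs behaved less uniformly. Snord89 was at 132, 142, 128 and 86.8 CPM after HCME-sEVs and at 75.6, 80.2 and 60.1 CPM after LME-sEVs, with HCME-sEV library 4 close to the LME-sEV libraries. Its log2 fold change was −0.77 ± 0.13 (FDR 0.00145). Snord49b went from 22.8, 22.5, 18.3 and 15.1 CPM to 7.51, 12.8 and 9.08 CPM, a log2 fold change of −0.99 ± 0.19 (FDR 0.00312), and Snord17, at 238 bases the longest C/D box RNA here, from 9.12, 7.58, 6.11 and 8.35 CPM to 3.49, 4.48 and 2.32 CPM, a log2 fold change of −1.20 ± 0.28 (FDR 0.0101). Snord89 and Snord49b were called in each of the 7 fits and Snord17 in 6, the exception being the fit without LME-sEV library 3. Snord43 (−1.05 ± 0.34, FDR 0.0611) and Snord65 (−1.31 ± 0.44, FDR 0.0687) missed the threshold, although their groups did not overlap. The annotation lists Snord43 as a miRNA gene.

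The abundant C/D box RNAs without a host gene in GENCODE vM21 differed less between the groups. Snord13, which guides an acetylation of 18S rRNA, was at 131, 131, 141 and 107 CPM after HCME-sEVs and at 93.1, 124 and 97.4 CPM after LME-sEVs. Its log2 fold change of −0.28 had a 95% interval from −0.49 to −0.07 (FDR 0.112), and it was called in 2 of the 7 fits, those without HCME-sEV library 4 or LME-sEV library 2. Snord104 was at 98.4, 81.6, 81.3 and 76.3 CPM and at 73.5, 79.5 and 73.0 CPM, with a log2 fold change of −0.16 (interval −0.36 to 0.03, FDR 0.337), an interval that leaves out a fall of the size seen for Snora73b. Snord118, which is required for the maturation of 28S rRNA and has a near-identical copy, was at 13.2, 8.59, 7.18 and 9.05 CPM and at 6.70, 9.41 and 6.38 CPM (−0.35, interval −0.81 to 0.11, FDR 0.406). For all of these, the ranges of the groups overlapped.

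Snord83b had the highest log2 fold change of the class, 0.30 ± 0.41 (FDR 0.721). It was at 3.84, 2.27, 5.05 and 2.09 CPM after HCME-sEVs and at 1.34, 6.27 and 4.25 CPM after LME-sEVs, so that LME-sEV libraries gave both the lowest and the highest value, and without LME-sEV library 2 the log2 fold change was −0.15. Of other RNAs with special roles, Snora73a, Snord14a, Snord14c, Snord14d, Snord14e and Snord22 were at 0 in all libraries. Snord3a (U3) had no row.

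The 23 RNAs too low for the test summed to 12.9 ± 4.14 CPM after HCME-sEVs and 6.14 ± 1.19 CPM after LME-sEVs. When every gene with at least 5 counts in total was tested (18541 genes), all 56 RNAs entered and 16 were called lower, beside 3.21% of genes, and 0 higher, beside 2.68%. The added one was Snora31, with 10, 5, 8 and 5 counts after HCME-sEVs and 1, 0 and 2 after LME-sEVs, a ratio of levels of 0.13 with an exact 95% counting interval from 0.0253 to 0.42 (log2 fold change −2.79, FDR 0.0194). In that fit 52 of the 56 log2 fold changes were below 0, beside 8949 of all 18541 genes. The median of Snord genes was −0.62, of Snora genes −1.12, of Scarna genes −1.27 and of all genes 0.02.

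Since most of these RNAs are made from introns, the level of the host gene was set beside each. GENCODE vM21 places 49 of the 56 inside a longer gene on the same strand, 39 of them in a protein-coding gene, with 41 host genes in all. Of the 41 host genes 6 were called lower (14.6%, beside 5.21% of all tested genes) and 2 higher (beside 3.75% of all tested genes). Of these hosts 0 were DEG, beside 83 lower and 79 higher DEG among all 12623 tested genes. The median log2 fold change of the 41 was 0.06. For the 26 tested RNAs with a tested host, the median was −0.97 for the RNAs and 0.07 for the hosts, and in 25 of the 26 the log2 fold change of the small RNA was below that of its host. The ratio of small RNA to host was lower in every LME-sEV library than in every HCME-sEV library for 15 of the 26, among them the 11 whose small RNA was called lower, for which this is close to fixed by the call. These ratios were not tested.

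Values of named pairs follow. Tcp1, a subunit of the cytosolic chaperonin and the host of Snora20, was at 408 ± 37.1 and 389 ± 21.6 CPM, a log2 fold change of −0.07 (FDR 0.669), and Snora20 had 114, 111, 120 and 77.9 counts per 1000 counts of Tcp1 after HCME-sEVs and 50.9, 57.1 and 48.5 after LME-sEVs. The noncoding 2410006H16Rik, which holds Snord49b and Snord65, was at 316 ± 29.5 and 378 ± 30.3 CPM (0.26, FDR 0.0597), opposite in sign to both RNAs. Rpl39, which encodes a ribosomal protein and holds Snora69, had a log2 fold change of 0.09 (FDR 0.564), and Eef1b2, which encodes a translation elongation factor and holds Snora41, one of 0.08 (FDR 0.531). Rpl3 holds both Snord43 and Snord83b and rose, with 0.24 (FDR 0.041). Gm15832, around Snord89, was at 2.16 ± 0.689 and 2.17 ± 0.453 CPM, a log2 fold change of 0.00 ± 0.40 (FDR 0.996), an error too wide to set it apart from the change of Snord89.

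Of the hosts of RNAs called lower, Snhg9 and Snx5 were called lower as well. Snhg9, host of Snora78, fell with a log2 fold change of −0.66 ± 0.11 (FDR 9.29e-04), beside −1.58 for Snora78. Snx5, a sorting nexin and host of Snord17, fell by 0.28 on the log2 scale (FDR 0.0262). Snhg3, host of Snora73b, had a log2 fold change of −0.29 (FDR 0.066), and Snora73b per 1000 counts of Snhg3 was at 605, 692, 654 and 568 after HCME-sEVs and at 446, 370 and 356 after LME-sEVs. Gm42715, around Snora30, had a log2 fold change of −0.46 (FDR 0.184), and Cep295, host of Scarna9, one of −0.06 (FDR 0.784), neither of them called. Of 16 tested spliced noncoding host genes (Gas5, Zfas1 and genes of the Snhg series), 3 were called lower (Snhg5, Snhg9 and Snhg15) and 0 higher. Of all tested genes 5.21% were called lower and 3.75% higher.

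**Figure D4:**
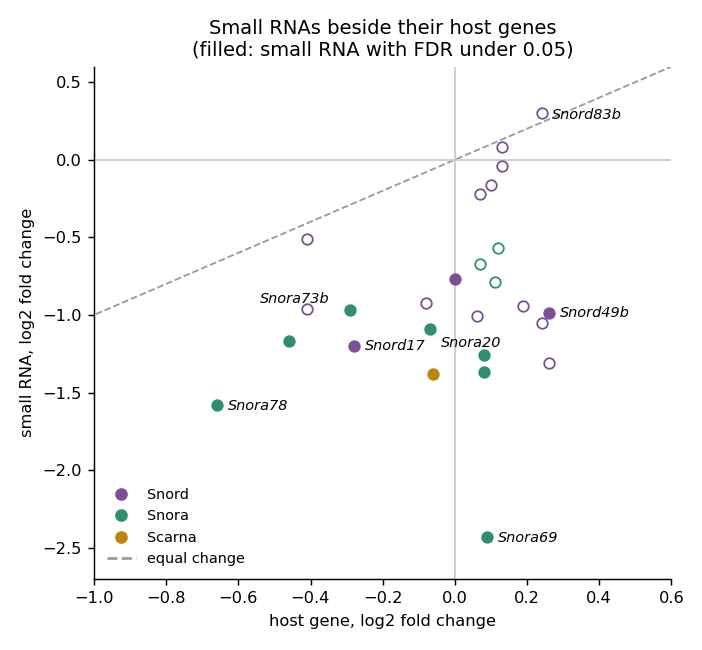
Log2 fold change of 26 small RNAs against that of their host genes, colored by class and filled for small RNAs with an FDR under 0.05; the dashed line marks equal change. All points but that of Snord83b lie below the line, while the hosts lie between −0.66 and 0.26.

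For 7 RNAs GENCODE vM21 has no longer gene around them on the same strand (Snord13, Snord104, Snord118, Snora17, Snora57, Scarna2 and Scarna17). A host gene missing from that annotation would go unseen. Their median log2 fold change was −0.90, beside −0.97 for those inside annotated hosts. Of the 7, 4 were called lower, beside 11 of the 26 tested RNAs inside hosts and 5.21% of all tested genes. By class, the Snora and Scarna genes among the 7 are those that were called and the Snord genes are those that were not. Across the 33 tested RNAs, Spearman's rho of the log2 fold change was −0.30 with length, 0.02 with GC content, −0.28 with the longest run of A, and −0.14 with mean level. Within classes the value for length was −0.27 over the 18 Snord and 0.55 over the 12 Snora genes, of opposite sign. These are descriptions over RNAs that share libraries and, in part, host genes.

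Of the 8 core proteins that bind these RNAs, 4 were called lower (2 of 4 in each class) and 0 higher, beside 5.21% and 3.75% of all tested genes. Dyskerin (Dkc1), the pseudouridine synthase of H/ACA particles, was at 704 ± 74.9 CPM after HCME-sEVs and 459 ± 39.0 CPM after LME-sEVs, a log2 fold change of −0.62 ± 0.09 (FDR 2.56e-04), and its partner Nhp2 fell by 0.40 on the log2 scale (FDR 0.0112). The remaining H/ACA core proteins, Nop10 and Gar1, were at −0.17 (FDR 0.26) and −0.19 (FDR 0.237). Of the C/D core, Nop58 went from 587 ± 74.3 to 406 ± 33.6 CPM (−0.53 ± 0.09, FDR 0.00125) and Nop56 from 354 ± 31.3 to 267 ± 16.7 CPM (−0.41 ± 0.08, FDR 0.0042). Nop56 and Nop58 are themselves hosts of C/D box RNAs. The methyltransferase fibrillarin (Fbl) was at −0.30 (FDR 0.0796) and Snu13 at −0.29 (FDR 0.0544), both without a call. Every LME-sEV library lay below every HCME-sEV library in all 4 C/D core genes and in 2 of the 4 H/ACA core genes, beside 10.8% of all tested genes.

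Genes for the assembly, transport and trimming of these particles gave mixed counts. Of 10 assembly factors 5 were called lower (Nufip1, Ruvbl1, Znhit3, Znhit6 and Nolc1), of 17 tested trimming and turnover factors 6 (Exosc1, Exosc2, Exosc9, Dis3, Mtrex and Dbr1, the last being the enzyme that opens intron lariats), and of 11 Cajal body and cap factors 1, Smn1. Together with the core proteins 16 of 46 tested genes were called lower and 0 higher, beside 5.21% and 3.75% of all genes. Their median log2 fold change was −0.25. None of them was a DEG, beside 83 lower and 79 higher DEG among all 12623 tested genes. The count of 16 called genes was 10, 6 and 7 without LME-sEV library 1, 2 and 3, respectively.

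Calls of lower level were also made among other short noncoding RNAs, for a minority of the genes in the larger lists. Of 44 further tested genes that GENCODE lists as snoRNA or scaRNA, nearly all with provisional symbols, 12 were called lower and 0 higher, beside 5.21% and 3.75% of all tested genes, with a median log2 fold change of −0.78. Of 48 tested small nuclear RNA genes 16 were called lower and 0 higher (33.3% lower), with a median of −0.81. Of 6 tested short noncoding RNAs, most of them made by RNA polymerase III, 3 were called lower and 0 higher: 7SK (Rn7sk), which holds back the elongation factor P-TEFb, with −1.19 ± 0.14 (FDR 7.04e-05), the RNase P RNA (Rpph1) with −2.10 ± 0.39 (FDR 0.00231), and Bc1 with −0.86 ± 0.19 (FDR 0.0077). The other 3 (Vaultrc5, Rny1 and Rny3) had log2 fold changes between −0.46 and −0.18 and no call. The count over small nuclear and polymerase III RNAs was 19 with all libraries, 9 without LME-sEV library 2 and 10 without LME-sEV library 3.

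**Figure D5:**
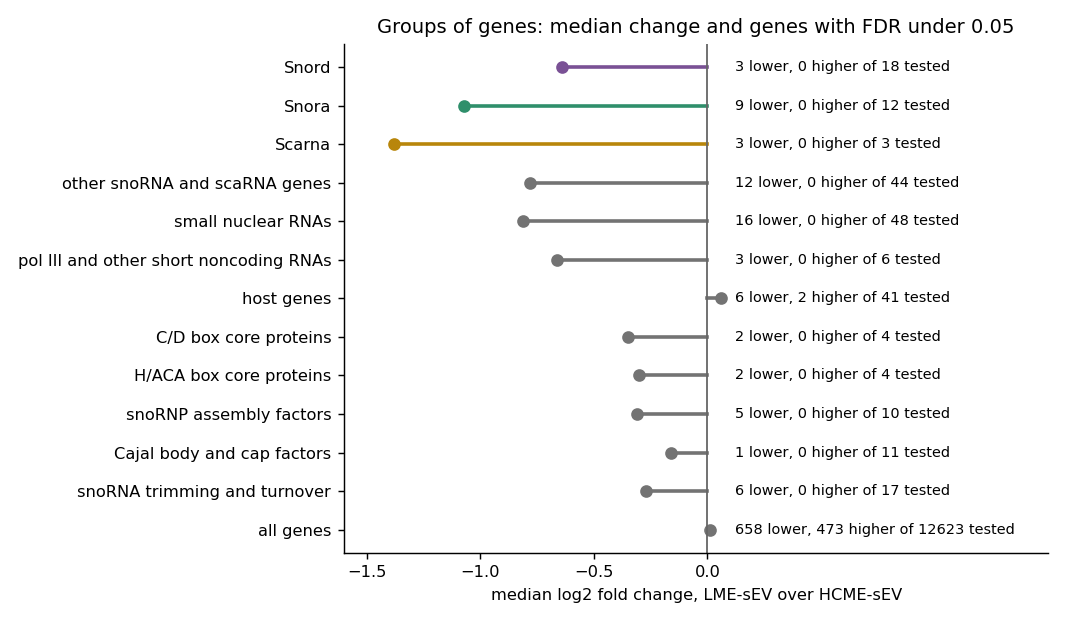
Median log2 fold change (LME-sEV over HCME-sEV) of the tested genes in each group, with the number called lower and higher at an FDR under 0.05. Short noncoding RNAs have medians between −0.64 and −1.38, protein groups between −0.16 and −0.35, and host genes and all genes lie near 0.

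Totals were between 3689831 and 5030522 counts per library, and the TMM factors between 0.9656 and 1.029. Markers of CD8+ T cells (Cd8a, Cd8b1, Cd3d, Cd3e and Cd3g) summed to 1265 to 1378 CPM after HCME-sEVs and 1475 to 1686 CPM after LME-sEVs (2 of 5 called higher), and those of CD4+ T and NK cells (Cd4, Ncr1, Klrb1c and Foxp3) to at most 2.16 CPM. Markers of other cells are given beside the lower guide RNAs. The counts of markers called higher stand beside 3.75% of all tested genes. Those of B cells summed to 235 to 277 and 319 to 342 CPM (2 of 5 tested markers higher), of myeloid cells to 100 to 135 and 132 to 174 CPM (0 of 3, with overlapping ranges), of basophils and mast cells to 8.88 to 37.4 and 32.1 to 51.1 CPM (3 of 7), and of erythroid cells and platelets to 71.6 to 175 and 150 to 197 CPM (3 of 6). The ranges of basophil and mast cell and of erythroid and platelet markers overlapped too, and no list had a marker at 0 throughout. The part of these cells in the levels of guide RNAs was not tested, and in such bulk libraries fewer cells of a type and less RNA per cell cannot be told apart.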

How the data were processed

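The authors prepared libraries with the QuantSeq 3′ mRNA-Seq kit (forward) with unique molecular identifiers (UMIs), which primes with oligo(dT). Mature snoRNAs carry no long poly(A) tail, so a level here is that of the molecules that were primed, and how they were primed was not tested. Per the submitters' processing notes, tools were FastQC, cutadapt 2.10, STAR 2.5.3a, UMI-tools 1.0.0 and featureCounts of Subread 2.0.0, with GRCm38. The annotation release and the strand setting are not given in the sources used here. The deposited values are whole-number counts per gene symbol, neither normalized nor filtered, and totals per library and the floor of 3 counts are given above.

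Counts were tested with edgeR 4.0.16 in R 4.3.3 (TMM, glmQLFit and glmQLFTest, no covariate, genes whose mean over the libraries reached 5 counts), LME-sEVs against HCME-sEVs, with Benjamini-Hochberg adjustment. The script was first tested on simulated data. Alternatives were a minimum of 5 counts in total, no filter, filterByExpr, DESeq2 size factors, upper quartile or library size only, DESeq2 1.42.0, limma-voom (limma 3.58.1), the replicate number as a block, and leaving out each library. Replicates differed by more than counting noise in every pair (chi-square over its degrees of freedom from 2.1 to 6.0). Python 3.11.15, pandas 2.3.3, scipy 1.17.1 and matplotlib 3.10.9 were also used.

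Members were matched to GENCODE vM21, all 56 by symbol, for position, sequence and host gene (for more than 1 host, that with the most counts). Near-identical copies were found with BLAST 2.17.0 (at least 90% identity over at least 80% of the length). Named were, in Snord and in Snora, the 5 of highest level, the 5 of smallest FDR and the 1 of highest log2 fold change, all tested scaRNAs, RNAs with a role outside guide function, core proteins and host genes. The members and lists were chosen with earlier results of these data known. Counting intervals and floors cover counting error only. The sequence of 1 RNA is not reported here.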

Additional observations from a re-analysis of the deposited data

How the results depend on the processing

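The 15 calls of lower level all remained with a minimum of 5 counts in total, no filter, filterByExpr, DESeq2 size factors, the upper quartile, library size only and limma-voom. DESeq2's Wald test kept 13, lost Snora17 and gave Snora69 no adjusted p. The count of small nuclear and polymerase III RNAs called was 19 and was 12 with DESeq2. Scaling by library size only turned the split over all genes from 658 lower and 473 higher to 465 and 612, and moved the median of all genes from 0.01 to 0.06.

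Leaving out single libraries gave between 1 and 3 Scarna calls, 5 and 14 DEG with lower level among the guide RNAs, 6 and 16 snoRNP and processing genes, 4 and 9 host genes, and 9 and 19 small nuclear and polymerase III RNAs, with fewer samples in each fit. Of 206 values of the class and list summaries under an alternative, 194 stayed within 1.5 times the count or within the spread and 12 were lower counts. The log2 fold change of Snord83b, 0.30 with all libraries, ranged from −0.15 without LME-sEV replicate 2 to 0.67 without LME-sEV replicate 1. Deviations of libraries with the same number correlated at 0.0721, 0.155 and 0.0267, so the numbers were not taken to pair them. The best-matching HCME-sEV library was 3, 2 and 2 for LME-sEV libraries 1, 2 and 3. Over all genes the replicate block gave 860 lower and 594 higher calls, beside 658 and 473 without it, so a pairing remains possible. With the replicate block 13 of the 15 calls remained, Snora17 and Scarna9 (FDR 0.0589) were lost and Snord13 was called (FDR 0.00648).

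Depth limits the 23 RNAs without a test, and 3 or 4 libraries a group limit every estimate of spread.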
